A study of Mus musculus with 28 samples.

Results

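The genes described here carry symbols for proteins of the cytosolic ribosome. They were chosen by symbol, as the numbered Rpl and Rps genes with or without an a, x, l or y suffix together with Rplp0, Rplp1, Rplp2 and Rpsa, and without the Rps6k kinases, which carry a similar symbol but are signalling enzymes. The rule found 82 genes among the 23712 to which deposited transcripts could be summed. Of the 82, 79 passed the filter on low counts, and Rpl10l, Rpl32l and Rpl3l did not, with at most 3, 21 and 3 counts in any library. The 79 comprise 46 genes of the large subunit, 30 of the small subunit and 3 paralogues with the l suffix (Rpl39l, Rps27l and Rps4l). The only transcript of Rps4l has a RefSeq name of the non-coding class, so Rps4l is a member by symbol only. Processed pseudogenes with nearly the same sequence exist for many of these genes, and how the authors' counting shared reads between copies is not given in the sources used here, so each level is uncertain to that extent.

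The ribosome translates every cytosolic mRNA. Its small subunit reads the message and its large subunit joins the amino acids. Ribosomal proteins are needed in nearly equal amounts per particle, their mRNAs are abundant in growing cells, and most begin with a short run of pyrimidines, the 5′ terminal oligopyrimidine (TOP) motif, through which growth signals control their translation. Their transcripts are also among the shortest of the protein-coding genes, so the way a library treats short RNA bears directly on their measured level.

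The study followed C57BL/6 mouse embryonic fibroblasts (MEF, taken 13.5 days after conception) that received retroviruses (pGCDNsam backbone) carrying Hnf4alpha with Foxa1, Foxa2 or Foxa3. These pairs turn fibroblasts into hepatocyte-like (iHep) cells. RNA was sequenced in 28 libraries of 9 groups, namely 2 of MEF, 2 of hepatocytes (Hep) from livers of C57BL/6 mice 10 weeks old, 2 each at 48 h with Foxa1, Foxa2 or Foxa3 (48h_Foxa1, 48h_Foxa2, 48h_Foxa3), 6, 4 and 6 of established cells (iHep_Foxa1, iHep_Foxa2, iHep_Foxa3) and 2 with the Foxa3 mutant del2 and Hnf4alpha (48h_Foxa3del2). For the mutant the title says 48 h and the stage label says iHep. The groups had no control with empty virus or Hnf4alpha alone, and retroviral cultures are mixtures in which cells that carry the factors are not marked. The labels do not say that libraries of a group came from separate cultures or animals, so the p-values measure the spread between these libraries, which may be technical.

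The libraries held 14592820 to 51743266 assigned reads. Markers of the cell types followed the labels. The 6 hepatocyte markers summed to 103550 and 109041 CPM (counts scaled to the library total by TMM) in Hep and to 11.3 and 14.2 in MEF, and the 6 fibroblast markers to 35988 and 36822 in MEF and 12.9 and 17.7 in Hep. The libraries fell into 2 sets by Rn7sk, the small nuclear RNA 7SK, which has no poly(A) tail. In 14 libraries Rn7sk lay between 17.9 and 71.4 CPM (high set), and in the other 14 between 0 and 6.26 (low set). All 48 h libraries with an unmutated factor, iHep_Foxa1 replicates 4 to 6 and iHep_Foxa3 replicates 2 to 6 were in the high set. MEF, Hep, iHep_Foxa2, iHep_Foxa1 replicates 1 to 3, iHep_Foxa3 replicate 1 and the mutant were in the low set. The labels name no such division. Because most members' levels differed between these sets, the division is described first, and every later comparison says which sets it joins.

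The start sites show the TOP motif and how far annotated starts hold it. The 8 windows below run from 12 bases before to 18 bases from the annotated start (GRCm38.p6, RefSeq), 5′ to 3′ on the gene's strand. Capitals mark the run of C and T that holds the first transcribed base, which is base 13, and a window with no capitals has a purine there. The first 4 belong to the members with the largest mean rise, and the last 4 to those with the largest mean fall, at 48 h with all 3 factors among the members that table holds, Rps14 apart.
Rps27, chr3:90213631-90213660, minus strand: tccgctttcgCTCCTTTCCggcggtgacga
Rps21, chr2:180257367-180257396, plus strand: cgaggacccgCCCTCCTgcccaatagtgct
Rps28, chr17:33824545-33824574, minus strand: accgcgtgcggTCTCgcgagagcgaaagtg
Rplp0, chr5:115559455-115559484, plus strand: ttcgggtttcgaggaccgcctggttctcct
Rpl5, chr5:107900516-107900545, plus strand: cacgtcgcttgcgtgctggtggtgctacat
Rps2, chr17:24720051-24720080, plus strand: cagtcgagaTCTCgcgcttcttggagcact
Rps3, chr7:99483692-99483721, minus strand: gcaagggtcgccgcgctgcgcggcgtcatt
Rpl11, chr4:136053376-136053405, minus strand: acccataaggccacggggccggaagtctcc

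Rps27 had a run of 9 pyrimidines and Rps21 one of 7, while Rps28 and Rps2 had 4 and the annotated first base of Rplp0, Rpl5, Rps3 and Rpl11 was a purine. Of the members, 61 genes with 73 annotated starts matched the table. A run of at least 5 pyrimidines over the first base stood at 21 of the 73 starts (28.8%) and at 3330 of 32851 starts of all genes (10.1%). Among members higher at 48 h with all 3 factors it stood at 6 of 24 starts, and among those lower at 2 of 10. An annotated start can miss the start used in these cells, and absence of a run says only that these letters are not in this window.

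The members took very different shares of the reads, and the share moved with the group and with the library set. In MEF they took 3.71% and 4.49% of assigned reads, and in Hep 1.65% and 1.59%. The 6 libraries at 48 h with an unmutated factor lay between 4.24% and 4.53%. In iHep_Foxa1 the 3 low-set libraries held 4.19% to 4.62% and the 3 high-set libraries 7.70% to 10.7%, so the 2 sets of 1 group did not overlap. The 4 iHep_Foxa2 libraries held 4.09% to 5.06%. In iHep_Foxa3 the share was 6.03% in low-set replicate 1 and 6.46%, 7.0%, 7.10%, 7.10% and 10.7% in the high-set replicates. The mutant libraries held 5.83% and 5.54%. Hepatocytes thus gave the lowest share of the 28 libraries, at 0.395 times that of MEF (0.302 times by summed FPKM, deposited values scaled to transcript length and depth). A share of reads also depends on how much the other RNAs of a library take up. On the TMM scale the median log2 difference of the members in Hep against MEF was -0.54. In bulk RNA, fewer cells of a type and less RNA per cell cannot be told apart.

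**Figure D1:**
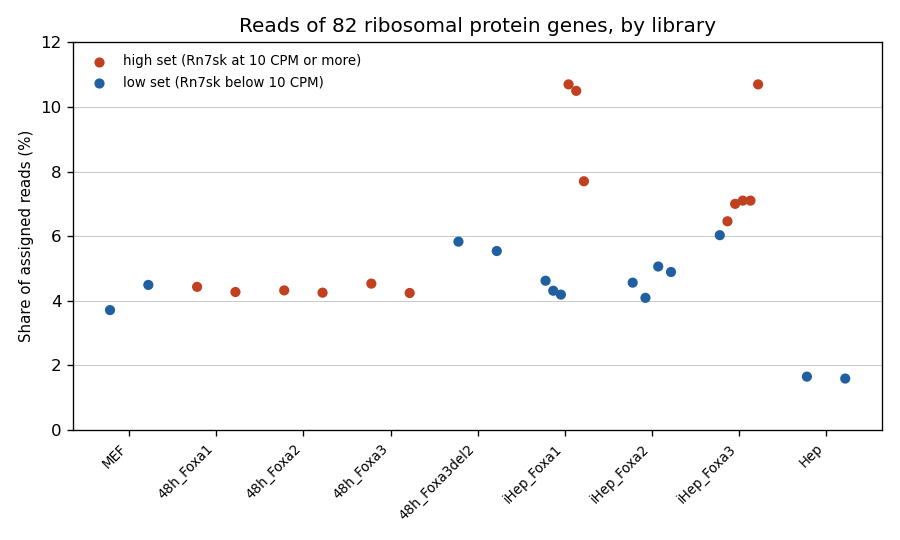
Share of assigned reads (%, vertical axis) taken by the 82 ribosomal protein genes in each of the 28 libraries, by group, with the library set shown by colour. The 2 Hep libraries are lowest at 1.65% and 1.59%, and in iHep_Foxa1 the 3 high-set libraries (7.70% to 10.7%) lie above the 3 low-set libraries (4.19% to 4.62%).

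Levels per length were far more even between members in the high set. The SD of log2(FPKM + 1) over the 76 tested members without the l suffix was 0.725 to 0.764 in the 14 high-set libraries and 1.12 to 1.34 in the 12 low-set libraries other than the mutant. The highest member exceeded the lowest 26.3- to 36.1-fold in the high set and 57.9- to 213.9-fold in those 12. Short members gained in the high set. The median FPKM of the 15 members under 500 bases, divided by that of the 18 members of 1000 bases or more, was 1.34 to 2.04 in the high set and 0.645 to 0.993 in the 12 low-set libraries. Across the 76 members, Spearman's rank correlation between FPKM and length was -0.602 to -0.331 per high-set library and 0.0301 to 0.147 per low-set library, as a description over genes that share a library. The mutant libraries, low by Rn7sk, lay near or in the high-set range, with SDs of 0.779 and 0.788, short to long ratios of 1.43 and 1.36 and rank correlations with length of -0.26 and -0.294.

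**Figure D2:**
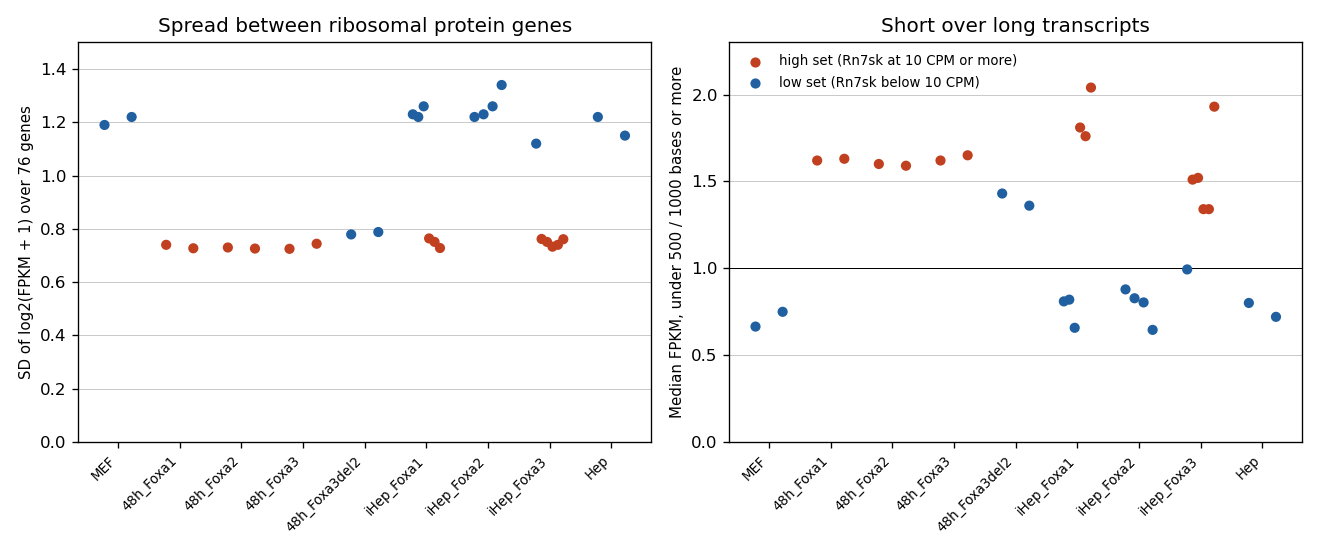
Each point is 1 library, by group and library set. Shown are the SD of log2(FPKM + 1) between 76 ribosomal protein genes and the median FPKM of members under 500 bases divided by that of members of 1000 bases or more. High-set libraries lie at SDs of 0.725 to 0.764 and ratios of 1.34 to 2.04, the other libraries apart from the mutant at 1.12 to 1.34 and 0.645 to 0.993.

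The order of the members changed between the sets and hardly within them. The rank correlation of FPKM over the 76 members was 0.78 to 0.99 between high-set libraries (median 0.91, 91 pairs), 0.86 to 0.99 between low-set libraries without the mutant (0.94, 66 pairs), and 0.33 to 0.60 between the sets (0.50, 168 pairs). The mutant libraries gave 0.71 to 0.94 with the high set (0.90) and 0.51 to 0.63 with the low set (0.57). In the high set the highest mean level was that of Rplp1, an acidic protein of the stalk that recruits translation factors, with 3743 FPKM or 3.27 times the median member. In the low set without the mutant it was Rps2, a protein near the mRNA entry of the small subunit, with 3139 FPKM or 6.82 times the median member. Rplp1 ranked 37 there, and Rps2 ranked 12 in the high set. Rps29, a small zinc-binding protein, ranked 39 in the high set (1143 FPKM) and 74 in the low set (72.5 FPKM). Rps14, which lines the platform of the small subunit, ranked 2 in both, and Rps15a, whose deposited length of 5158 bases divides its FPKM, ranked last in both (121.4 and 47.6 FPKM).

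Within iHep_Foxa1, where both sets have 3 libraries of the same labels, 68 of the 79 tested members were higher and 1 was lower in the high set (edgeR, adjusted p under 0.05), while 15.9% of all tested genes were higher and 21.4% lower. The median log2 difference was 1.51 over the members and -0.11 over all tested genes. By subunit, 42 of 46 large-subunit members were higher and none lower, and 24 of 30 small-subunit members were higher and 1 lower. The hepatocyte markers also differed between these libraries, summing to 5050 to 5664 CPM in the low set and 17538 to 28845 in the high set, and the part of cell state in the difference was not tested.

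Rps29 moved most. Its level was 28.8, 33.4 and 27.6 CPM in the low-set libraries and 921.1, 901.3 and 662.5 in the high-set libraries. The groups did not overlap, and the log2 difference was 4.79 ± 0.24 (SE, adjusted p = 2.1e-10). Rps27, a zinc-finger protein of the small subunit, went from 36.8, 41.5 and 34.7 CPM to 843.9, 934.5 and 543.5 (4.36 ± 0.27, adjusted p = 1.3e-09). Every high-set value of both genes was above every low-set value.

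Rplp1 stood at 231.1, 188.8 and 226.8 CPM in the low set and at 3155, 3062 and 2064 in the high set (3.68 ± 0.22, adjusted p = 8.6e-10). Rpl36, a small protein of the large subunit, stood at 45.4, 46.9 and 31.0 against 583.6, 523.2 and 438.8 (3.65 ± 0.26, adjusted p = 5e-09). These 4 genes had the largest called rises. The shortest member, Rps28 (328 bases), stood at 99.9, 98.6 and 100.1 CPM against 1209, 1257 and 787.6 (3.45 ± 0.27, adjusted p = 1.9e-08).

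Rps2 was the called member that fell. It stood at 3174, 4301 and 2809 CPM in the low set and at 2323, 2091 and 1342 in the high set, without overlap (-0.84 ± 0.21, adjusted p = 0.0035). Its neighbour at the mRNA entry, Rps3, stood at 1868, 2654 and 1595 against 1711, 2049 and 1191 CPM, and these values overlapped (-0.31 ± 0.19, adjusted p = 0.21). Rpl5, which carries 5S ribosomal RNA into the large subunit, stood at 2193, 2141 and 1995 against 1698, 2130 and 1356 (-0.29 ± 0.16, adjusted p = 0.16). Without iHep_Foxa1 replicate 5 Rpl5 was also called lower (-0.47, adjusted p = 0.033).

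The difference followed transcript length among the members, and in other genes too. Members under 500 bases (16 genes) had a median log2 difference of 2.55, those of 500 to under 1000 bases (45) 1.40, those of 1000 to under 2000 bases (15) 1.30, and those of 2000 bases or more (3) 1.09. Genes that are no members had medians of 1.26, 0.62, 0.11 and -0.25 in the same 4 classes, so in each class the members lay above the other genes. Spearman's rank correlation between length and log2 difference was -0.42 over the 79 members, as a description over genes of the same libraries, and -0.26 over all tested genes.

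**Figure D3:**
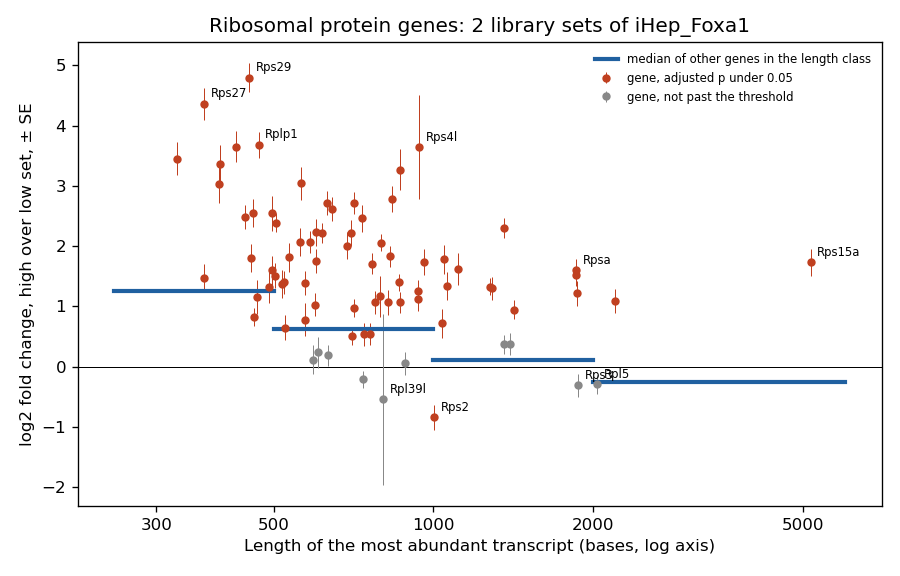
Log2 difference between high-set and low-set iHep_Foxa1 libraries (vertical axis, ± SE) against deposited transcript length in bases (log axis) for 79 ribosomal protein genes. Red points passed the test, grey points did not, and blue lines give the median of all other genes per length class. Medians fall from 2.55 under 500 bases to 1.09 at 2000 bases or more, and those of other genes from 1.26 to -0.25.

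In iHep_Foxa3, where the low set has 1 library and no test was made, 3 genes named above for their set difference were separated in the same direction. Replicate 1 held 58.7 CPM of Rps29 against 424.6 to 831.1 (median 473.6) in the 5 high-set replicates. It held 326.9 CPM of Rplp1 against 1449 to 2521 (median 1726). Rps2 went the other way, with 3686 CPM in replicate 1 and 1682 to 1971 (median 1787) in the others. For each of the 3 genes replicate 1 lay outside the range of the other 5. Other members did not all separate so. Rpl11 stood higher in replicate 1, at 1472 CPM against 623.7 to 1339, and Rpl4 stood at 2574, inside the range of 1797 to 2847. The share of reads in all members was 6.03% in replicate 1 and 6.46% to 10.7% in the others.

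Hepatocytes and fibroblasts, both in the low set, were compared as the end points of the conversion. In Hep 39 of 79 members were lower and 1 was higher than in MEF, while 37.1% of all tested genes were lower and 27.7% higher. The median log2 difference was -0.54 over the members and -0.29 over all tested genes. From the shortest to the longest class the members had medians of -0.34, -0.59, -0.54 and -0.60. Other genes of the same classes had 0.36, 0.46, 0.04 and -0.52. Of the large-subunit members 22 of 46 fell and 1 rose, and of the small-subunit members 17 of 30 fell and none rose. The shift of all genes depends on the scaling, since DESeq2 size factors moved it from -0.29 to -0.13 and left 21 members lower and 3 higher, and on the FPKM scale 73 were lower with limma, beside a shift of -0.69. The count of 40 called members became 14 without MEF replicate 2, 21 without Hep replicate 2 and 9 in a model with no term for the set. The 2 MEF libraries held 24.5 and 297.1 CPM of leukocyte markers, and Hep 105.5 and 121.7. Proliferation markers summed to 308.0 and 356.2 CPM in MEF and to 2.81 and 7.15 in Hep, and the part of cell division in the lower levels was not tested.

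Rps15a, a small-subunit protein, fell most. It stood at 196.1 and 297.0 CPM in MEF and 75 and 64.4 in Hep, without overlap (-1.82 ± 0.29, adjusted p = 1.4e-05). Rplp0, the base of the stalk, stood at 508.3 and 562.6 CPM against 210.4 and 203.0 (-1.37 ± 0.19, adjusted p = 3.8e-06). Rps20 stood at 608.0 and 784.6 CPM against 277.7 and 249.0 (-1.40 ± 0.26, adjusted p = 8.6e-05). In each of these genes both Hep libraries lay below both MEF libraries. With no term for the set the adjusted p of Rplp0 was 0.095.

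The other stalk genes were also lower in Hep. Rplp2 differed by -0.86 ± 0.23 (adjusted p = 0.0031, and 0.31 with no term for the set) and Rplp1 by -0.62 ± 0.24 (adjusted p = 0.031). The call for Rplp1 ended without either MEF library or Hep replicate 1 and with DESeq2 size factors (-0.46, adjusted p = 0.12). Rpsa, a small-subunit protein first described as a laminin receptor, differed by -0.77 ± 0.23 (adjusted p = 0.0059), and its call ended without MEF replicate 2 (-0.56, adjusted p = 0.10) or Hep replicate 2 (-0.66, adjusted p = 0.058). With no term for the set the adjusted p was 0.62 for Rplp1 and 0.21 for Rpsa, and with a common term that of Rplp1 was 0.088.

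Some members did not follow this fall. Rpl36 was the called member that was higher in Hep, at 68.9 and 94.2 CPM against 45 and 44.9 in MEF (0.86 ± 0.29, adjusted p = 0.014), but its call ended without Hep replicate 2 (0.62, adjusted p = 0.13), on the FPKM scale (0.02, adjusted p = 0.97), with no term for the set (adjusted p = 0.47) and with a common term (adjusted p = 0.061). Rps2 stood at 3128 and 2077 CPM in Hep and 2709 and 3410 in MEF, and the groups overlapped (-0.23 ± 0.25, adjusted p = 0.44). Rps29 stood at 42.4 and 60.5 CPM in Hep and 35.4 and 34.8 in MEF (0.55 ± 0.25, adjusted p = 0.065), and it was called without Hep replicate 1 (0.79, adjusted p = 0.03) and with DESeq2 size factors (0.71, adjusted p = 0.027).

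Established iHep cells of the low set differed from fibroblasts in few of these genes. Against MEF, 2 members were higher and 4 lower in low-set iHep_Foxa1, where 19.5% of all tested genes were higher and 18.8% lower. In iHep_Foxa2 2 were higher and 1 lower, where 20.6% of all tested genes were higher and 20.2% lower. Median log2 differences were -0.07 and -0.03 over the members and 0.05 and 0.06 over all tested genes. These 2 comparisons share the MEF libraries.

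Rpl41, which encodes the smallest ribosomal protein, was the member called lower with both factors. It stood at 821.2 and 894.3 CPM in MEF, at 554.0, 549.3 and 502.4 in low-set iHep_Foxa1 (-0.68 ± 0.16, adjusted p = 0.0027) and at 399.7, 494.3, 518.3 and 461.6 in iHep_Foxa2 (-0.87 ± 0.15, adjusted p = 0.00015). Every iHep library lay below both MEF libraries. Rps16, a small-subunit protein, was higher with both, at 795.0 and 869.5 CPM in MEF, 1261, 1026 and 1293 with Foxa1 (0.52, adjusted p = 0.037) and 1208, 1234, 1735 and 1431 with Foxa2 (0.75 ± 0.18, adjusted p = 0.0029). Its call with Foxa1 ended without MEF replicate 1 (0.40, adjusted p = 0.26), MEF replicate 2 (0.55, adjusted p = 0.13), iHep_Foxa1 replicate 1 (0.48, adjusted p = 0.088) or replicate 3 (0.46, adjusted p = 0.092) and with DESeq2 size factors (0.42, adjusted p = 0.096), and that with Foxa2 without MEF replicate 1 (0.63, adjusted p = 0.07). The further calls were Rpl18 (0.53) and Rpl34, Rps20 and Rps4l (lower) with Foxa1 and Rpl23 (0.63) with Foxa2. All 5 calls ended without MEF replicate 2, with adjusted p of 0.074 for Rpl18, 0.37 for Rpl34, 0.30 for Rps20, 0.075 for Rps4l and 0.078 for Rpl23. They also ended without MEF replicate 1 for Rpl18 (0.21), Rps4l (0.14) and Rpl23 (0.42). Without a single iHep_Foxa1 library the adjusted p was 0.13 for Rpl18 (replicate 1), 0.062, 0.063 and 0.12 for Rps20 (replicates 1, 2 and 3), 0.085 and 0.11 for Rpl34 and 0.13 and 0.12 for Rps4l (replicates 2 and 3). Without iHep_Foxa2 replicates 1, 3 or 4 it was 0.086, 0.076 and 0.05 for Rpl23. The number of calls with Foxa1 went from 6 to 1 without MEF replicate 2 and to 3 without MEF replicate 1, iHep_Foxa1 replicate 1 or replicate 2. With Foxa2 it went from 3 to 6 without iHep_Foxa2 replicate 2 and to 2 without either MEF library or iHep_Foxa2 replicate 4, and DESeq2 size factors gave 1 higher and 4 lower.

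Against Hep, 35 members were higher and 3 lower in low-set iHep_Foxa1 (37.5% and 26.7% of all tested genes). In iHep_Foxa2 40 were higher and 3 lower (39.3% and 28.1% of all tested genes). The counts of higher members are near the background share for Foxa1 and somewhat above it for Foxa2. Median log2 differences were 0.52 and 0.45 over the members and 0.38 and 0.42 over all tested genes. That background mixes lengths. From the shortest to the longest class the members had medians of 0.24, 0.54, 0.57 and 0.58 with Foxa1. Other genes had -0.23, -0.36, -0.03 and 0.59. With Foxa2 the medians were 0.24, 0.63, 0.49 and 0.62 for members and -0.60, -0.47, -0.07 and 0.65 for other genes. Members thus lay above other genes of their length except in the longest class. DESeq2 size factors moved the median of all genes to 0.13 and 0.17 and gave 15 higher and 5 lower with Foxa1 and 25 and 6 with Foxa2. Without Hep replicate 2 the Foxa1 count of 38 became 21. The 2 comparisons share the Hep libraries with each other and with the comparison of Hep and MEF, where 37.1% of all tested genes were lower in Hep. Lower in Hep against MEF and higher in both iHep groups against Hep were 28 members. The share of all tested genes called so in all 3 was not computed, so this count cannot be read as particular to the members.

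Rps15a had the largest rise after the sparse Rpl39l, at 272.2, 343.0 and 230.7 CPM in low-set iHep_Foxa1 and 304.2, 238.4, 314.2 and 340.6 in iHep_Foxa2, all above the 75 and 64.4 of Hep (2.02 ± 0.27, adjusted p = 2.2e-06, and 2.10 ± 0.27, adjusted p = 8.4e-07). Rpl12, which binds beside the stalk, stood at 292.5, 264.3 and 255.3 CPM with Foxa1 and 119.2 and 111.3 in Hep (1.23 ± 0.22, adjusted p = 5.9e-05). With Foxa2 Rpl12 stood at 320.1, 283.1, 359.0 and 304.0 CPM (log2 difference 1.46, adjusted p = 0.076 with no term for the set). No iHep library overlapped Hep for either gene.

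The members lower than in Hep were the same 3 by name with both factors, namely Rpl36, Rpl37 and Rps29. Rpl36 stood at 45.4, 46.9 and 31.0 CPM with Foxa1 and 41.8, 40.8, 38.7 and 25.4 with Foxa2, below the 68.9 and 94.2 of Hep (-0.99 ± 0.26, adjusted p = 0.0024, and -1.15 ± 0.24, adjusted p = 0.0003). The Foxa1 calls of all 3 ended without Hep replicate 2, with adjusted p of 0.054 for Rpl36, 0.56 for Rpl37 and 0.14 for Rps29, and so did that of Rpl37 with Foxa2 (-0.55, adjusted p = 0.25). With no term for the set the adjusted p with Foxa2 was 0.23 for Rpl36 and Rpl37 and 0.45 for Rps29, and with a common term that with Foxa1 was 0.12 for Rpl36, 0.65 for Rpl37 and 0.26 for Rps29. On the FPKM scale with limma Rps29 lay above Hep by 0.18 with Foxa1 and 0.07 with Foxa2, and Rpl37 by 0.18 with Foxa1.

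Between the 2 low-set iHep groups no member was called. Unadjusted, edgeR gave 2 members under 0.05, both lower in iHep_Foxa1, and DESeq2's Wald test and limma also called 0 (4 and 3 unadjusted). Of all tested genes 0.200% were higher and 0.0727% lower, and the median over the members was -0.03. The intervals of single genes remain wide at 3 against 4 libraries.

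Within the high set, established cells exceeded cells at 48 h in nearly every member. With Foxa1, 76 of 79 members were higher and none lower, while 25.3% of all tested genes were higher and 26.6% lower. With Foxa3, 74 of 79 were higher and none lower, while 24.4% of all tested genes were higher and 24.9% lower. The median log2 differences were 1.27 and 0.89 over the members and 0.00 and 0.02 over all tested genes. The 2 comparisons share no library, and 74 members were higher in both. With Foxa1 all 46 large-subunit members and 29 of 30 small-subunit members rose, and with Foxa3 44 and 29. The Foxa3 count became 48 without 48h_Foxa3 replicate 2. Cell type markers moved in the same comparisons. Hepatocyte markers summed to 10.9 to 14.8 CPM in the 48 h libraries compared and 17538 to 28845 in the high-set iHep libraries, and fibroblast markers to 25475 to 28250 and 34.4 to 112.9. Proliferation markers summed to 886.1 to 951.5 CPM and 324.5 to 803.8. Rn7sk, which defines the sets, also differed between these groups without overlap. It lay at 17.9 to 30.7 CPM in the 48 h libraries compared and at 37 to 71.4 in the high-set iHep libraries. Tested genes under 500 bases that are no members took 0.271% to 0.279% and 0.655% to 1.98% of reads. The comparison thus does not hold the library property constant. The part of that property, cell type and cell division in the rise of the members was not tested.

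Length ordered the members less in this comparison. With Foxa1 the medians of the members were 1.51, 1.26, 1.27 and 1.10 from the shortest to the longest class, and those of other genes 1.07, 0.66, 0.29 and -0.19. With Foxa3 they were 1.01, 0.89, 0.87 and 0.86, and those of other genes 0.53, 0.22, 0.14 and -0.05. Members above 1000 bases thus rose nearly as much as short ones, and every class lay above other genes of its length. Spearman's rank correlation with length was -0.31 with Foxa1 and -0.15 with Foxa3 over the members, and -0.27 and -0.15 over all tested genes.

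Rpl36a, a large-subunit protein near the tRNA exit site, stood at 272.7 and 275.2 CPM in 48h_Foxa1 and at 1058, 1335 and 856.9 in high-set iHep_Foxa1 (1.98 ± 0.33, adjusted p = 7.5e-05). Rpl37, a zinc-binding protein of the large subunit, stood at 129.7 and 127.4 against 549.5, 523.8 and 440.0 CPM (1.97 ± 0.37, adjusted p = 0.00024). With Foxa3 Rpl37 stood at 139.9 and 128.1 CPM at 48 h and 231.9 to 657.6 (median 258.8) in the 5 high-set iHep libraries (1.32 ± 0.34, adjusted p = 0.0034). Groups did not overlap for these genes, although iHep_Foxa3 replicate 6 lay far above its group.

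Long members rose too. Rpl5 stood at 783.0 and 833.2 CPM at 48 h and 1698, 2130 and 1356 in iHep with Foxa1 (1.10 ± 0.18, adjusted p = 6.6e-05), and rose by 0.99 ± 0.17 with Foxa3 (adjusted p = 8.5e-05). Rps3 rose by 0.99 ± 0.21 and 0.87 ± 0.20. The stalk genes Rplp0, Rplp1 and Rplp2 rose by 0.80, 1.49 and 1.56 with Foxa1 and by 0.81, 0.85 and 1.08 with Foxa3, so Rplp1 and Rplp2 rose more than their partner Rplp0 with Foxa1, a difference that was not tested.

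Few members were not called. With Foxa1 they were Rps2 and the paralogues Rpl39l and Rps4l, and with Foxa3 these 3 with Rpl13 and Rpl41. Rps2 stood at 1477 and 1185 CPM at 48 h and 2323, 2091 and 1342 in high-set iHep_Foxa1, which overlap (0.53 ± 0.23, adjusted p = 0.066), and without iHep_Foxa1 replicate 6 it was called (0.73, adjusted p = 0.012). With Foxa3 the difference of Rps2 was 0.46 (adjusted p = 0.086). Rpl41 stood at 718.4 and 713.9 CPM at 48 h and 638.0 to 910.1 (median 747.2) in iHep with Foxa3 (0.05 ± 0.15, adjusted p = 0.83).

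High-set iHep_Foxa1 and iHep_Foxa3 differed in few members. Called higher with Foxa1 were Rps29 (0.60 ± 0.18, adjusted p = 0.034), Rplp1 (0.60 ± 0.17, adjusted p = 0.029) and Rpl31 (0.63 ± 0.21, adjusted p = 0.048), and none was lower, while 5.30% of all tested genes were higher and 7.86% lower. Rps29 stood at 921.1, 901.3 and 662.5 CPM with Foxa1 and 446.1, 554.7, 424.6, 473.6 and 831.1 with Foxa3, and the groups overlapped through replicate 6. The median of the members was 0.38, and 74 of 79 lay above 0. The count depended on single libraries. It was 59 without iHep_Foxa3 replicate 6, 10 without iHep_Foxa1 replicate 6, and 0 by edgeR without each other library compared (5 to 28 unadjusted). DESeq2's Wald test called 19 and limma 9.

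**Figure D4:**
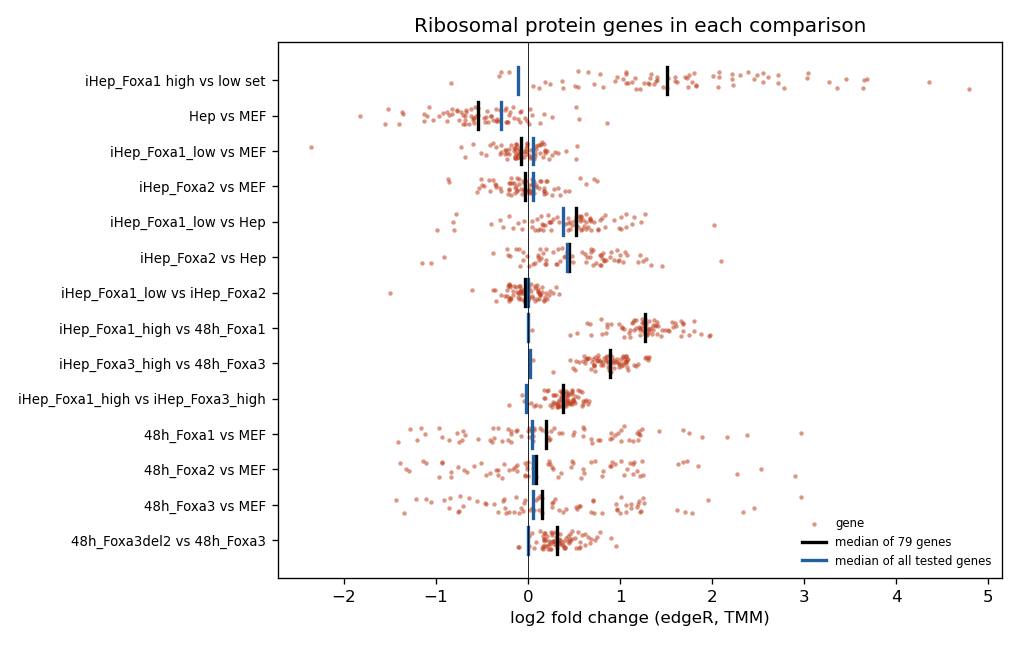
Log2 differences of the ribosomal protein genes in each of the 14 comparisons, with the median of the members (over 79 genes) and of all tested genes. Rpl39l is left out of the points, so 78 are plotted. The medians of the members are 1.27 and 0.89 for high-set iHep against 48 h and -0.54 for Hep against MEF.

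The comparison of 48 h cells with fibroblasts joins the high set (48 h) and the low set (MEF), so the response to the factors and the library set cannot be told apart. With Foxa1, Foxa2 and Foxa3 in turn, 26, 24 and 26 members were higher and 11, 12 and 10 lower. Of all tested genes 9.98%, 10.0% and 10.1% were higher and 11.3%, 11.3% and 11.1% lower. The median over the members was 0.20, 0.09 and 0.15, beside 0.04, 0.06 and 0.06 over all tested genes. The 3 comparisons share the MEF libraries, and 24 members were higher and 10 lower in all 3. With a common term for the set, 0 members were called higher by edgeR with any factor (0 unadjusted), and 12, 14 and 11 were called lower. That term can be estimated only from iHep_Foxa1 and iHep_Foxa3, the groups with libraries in both sets. It is assumed to be the same at 48 h, so it cannot separate the set from the response here. With no term for the set 0 were called higher (3, 4 and 3 unadjusted) and 4 lower with each factor. Of 37, 36 and 36 members called, 21 to 24 were called without MEF replicate 2 or either 48 h library, and 25 or 26 without MEF replicate 1.

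The direction followed length. With Foxa1, members under 500 bases had a median of 1.05, and 9 of the 16 were higher and none lower. Those of 500 to under 1000 bases had a median of 0.15 (15 higher, 7 lower of 45), those of 1000 to under 2000 bases -0.18 (2 higher, 3 lower of 15), and those of 2000 bases or more -0.18 (1 lower of 3). Other genes had medians of 0.04, 0.13, -0.02 and 0.08 in the 4 classes with Foxa1, 0.08, 0.09, -0.02 and 0.09 with Foxa2 and 0.24, 0.12, -0.02 and 0.09 with Foxa3. The rank correlation with length was -0.39, -0.37 and -0.39 over the members with the 3 factors, and 0.07, 0.08 and 0.07 over all tested genes.

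Rps29 rose from 35.4 and 34.8 CPM in MEF to 292.3 and 252.8 with Foxa1 (2.96 ± 0.27, adjusted p = 4.9e-07), and all 6 libraries at 48 h with an unmutated factor lay between 249.2 and 292.3. Rps27 stood at 42.6 and 57.4 CPM in MEF and 244.1 to 299.5 at 48 h, and Rpl36 at 45 and 44.9 against 199.7 to 227.3. With the common term for the set the sign of these 3 genes turned, to -1.19, -1.33 and -0.84 with Foxa1. These values carry the set difference of iHep cells over to 48 h, an assumption that was not tested. In the deposited values every library at 48 h with an unmutated factor lay above both MEF libraries for them.

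Rpl5 fell from 1819 and 2471 CPM in MEF to 765.6 to 833.2 at 48 h (-1.41 ± 0.20 with Foxa1, adjusted p = 4.3e-05). Rps3 fell from 1653 and 2070 CPM to 804.2 to 883.8 (-1.16). Rps2 fell from 2709 and 3410 CPM to 1185 to 1477 (-1.20 ± 0.26, adjusted p = 0.0021). With the common term for the set the differences with Foxa1 were -0.84 for Rpl5, -0.80 for Rps3 and -0.29 for Rps2, with adjusted p of 0.082, 0.095 and 0.62. All 48 h values of these genes lay below both MEF values.

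The stalk genes rose at 48 h with Foxa1, Rplp1 by 1.68 ± 0.25 (adjusted p = 8e-05), Rplp0 by 1.21 ± 0.19 (adjusted p = 0.00016) and Rplp2 by 0.91 ± 0.23 (adjusted p = 0.0082), while Rpsa did not pass (0.24 ± 0.23, adjusted p = 0.52). Without 48h_Foxa1 replicate 1 the adjusted p of Rplp2 was 0.051. With the common term for the set all 4 had negative values, from -1.52 for Rplp1 to -0.89 for Rplp0.

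**Figure D5:**
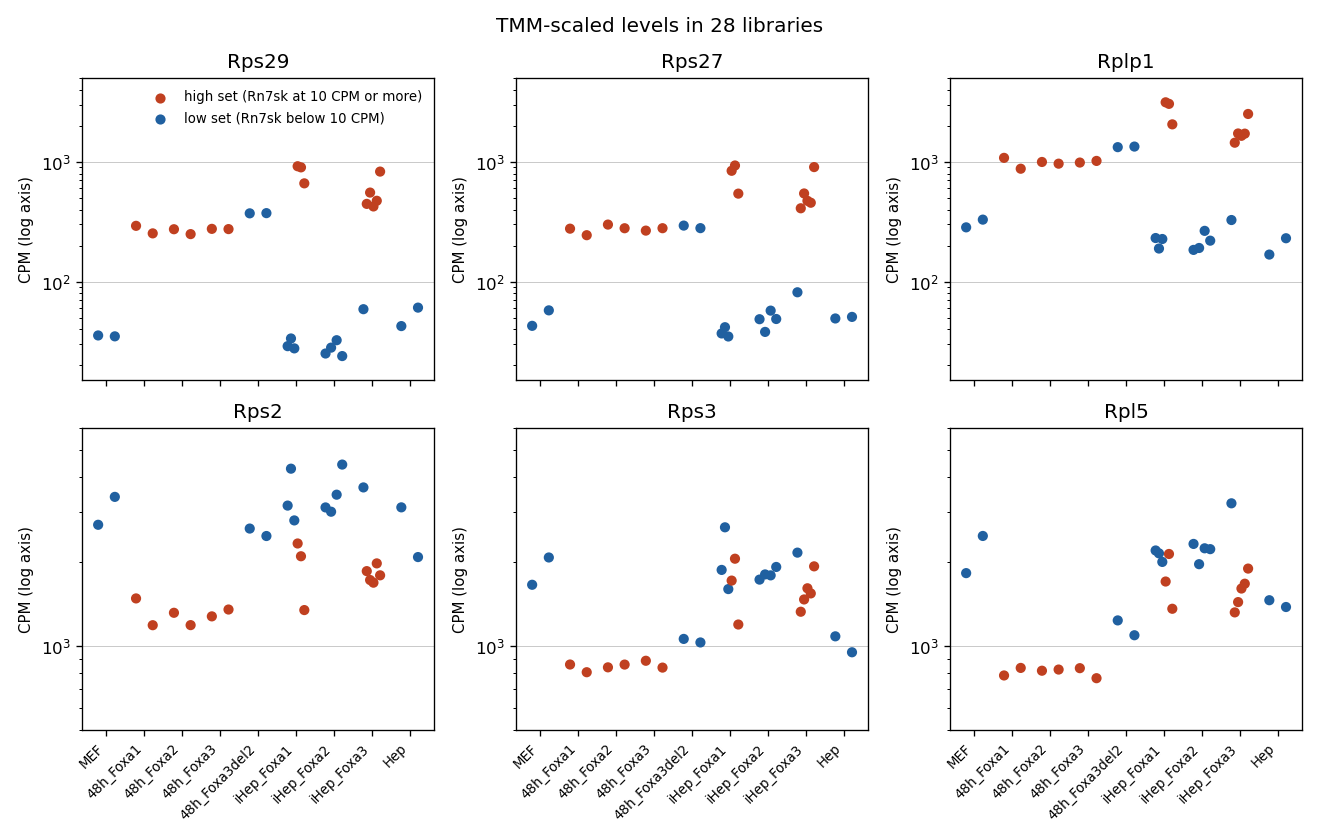
CPM (log axis) of Rps29, Rps27, Rplp1, Rps2, Rps3 and Rpl5 in each of the 28 libraries, by group and library set. Rps29 is between 249.2 and 292.3 in the 48 h libraries with an unmutated factor and at 35.4 and 34.8 in MEF, whereas Rps2 is between 1185 and 1477 at 48 h and at 2709 and 3410 in MEF.

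Cells with the mutant del2, low by Rn7sk, were compared with 48h_Foxa3, high by Rn7sk, so the mutation, the stage label and the set cannot be told apart. In the mutant 6 of 79 members were higher and none lower, while 4.78% of all tested genes were higher and 4.72% lower. They were Rps2 (0.96 ± 0.26, adjusted p = 0.023), Rpsa (0.90 ± 0.23, adjusted p = 0.017), Rps16 (0.78 ± 0.21, adjusted p = 0.022), Rpl6 (0.75 ± 0.17, adjusted p = 0.0097), Rpl10 (0.65 ± 0.16, adjusted p = 0.015) and Rpl4 (0.62 ± 0.18, adjusted p = 0.037). Rps2 stood at 2626 and 2470 CPM in the mutant and 1274 and 1348 in 48h_Foxa3, and Rpsa at 1954 and 1791 against 1000.4 and 1004. Rps29 stood at 371.8 and 373.3 against 275.8 and 274.5 (0.44 ± 0.25, adjusted p = 0.30). The median of the members was 0.32, and 77 of 79 lay above 0. The count was 1 without 48h_Foxa3del2 replicate 2 and 0 by edgeR without each of the other 3 libraries (8 to 11 unadjusted). It was 0 in a model with no term for the set (4 unadjusted) and 60 with a common term for it. The common term takes the set difference of iHep cells to hold for these libraries, which was not tested. The mutant libraries held 521.6 and 541.6 CPM of hepatocyte markers against 11.1 and 14.8 in 48h_Foxa3, and 9496 and 11151 of fibroblast markers against 26876 and 27923. Of the 6 hepatocyte markers 2 stood at 1 CPM or more in the mutant and 3 in 48h_Foxa3, and Ttr at 0 in both. The hepatocyte sum of the mutant thus rests on few genes of the list.

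The paralogues with the l suffix differed from the genes they resemble. Rpl39l, a copy of Rpl39 best known from testis, had 0 counts in both Hep libraries. It stood at 3.03, 0 and 10.2 CPM in low-set iHep_Foxa1, a mean of 4.41, at least 11.8-fold above the floor of 3 counts per library, which is 0.374 CPM in Hep. That call (adjusted p = 0.039) ended without iHep_Foxa1 replicate 3 (adjusted p = 0.11) or either Hep library. Rpl39 itself stood at 145.4, 243.8 and 129.2 CPM in those libraries and 157.8 and 151.2 in Hep, which overlap.

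Rps27l, a copy of Rps27 known as a p53 target, had a smaller set difference than its relative, a contrast that was not tested. It stood at 207.5, 112.0 and 200.7 CPM in the low-set and 454.2, 442.7 and 266.7 in the high-set iHep_Foxa1 libraries (1.16 ± 0.28, adjusted p = 0.0024), where Rps27 differed by 4.36 ± 0.27. Rps4l, a copy of Rps4x, stood at 6.62, 0.902 and 0.979 CPM in the low set and 29.6, 70.7 and 8.21 in the high set (3.64 ± 0.86, adjusted p = 0.0025).

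Genes of related function were taken from lists chosen with earlier results known. Of 6 further ribosomal protein genes outside the symbol rule, 5 were higher in the high set of iHep_Foxa1, with a median of 2.00. Rack1, a scaffold on the small subunit, differed by 2.02 ± 0.16 (adjusted p = 2.6e-08). Of 55 subunits of the respiratory chain with transcripts under 1000 bases, 39 were higher and none lower (median 1.03), and of 78 mitochondrial ribosomal proteins 50 were higher and 5 lower (0.74). Of 19 translation factors with TOP mRNAs 8 were higher and 3 lower (0.34), and of 27 genes of ribosome biogenesis 7 were higher and 12 lower (-0.26). Over all tested genes 15.9% were higher and 21.4% lower, and no list was tested against another.

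Hep and MEF differed in the opposite sense for the 2 kinds of ribosome. Of the 78 mitochondrial ribosomal proteins 61 were higher in Hep and 1 lower (median 1.11), and of the 55 respiratory subunits 49 were higher and 1 lower (1.78). Of the biogenesis genes 20 of 27 were lower and 2 higher (-0.75), and of the TOP translation factors 8 of 19 were lower and 1 higher (-0.18). Over all tested genes 37.1% were lower and 27.7% higher, with a median of -0.29, so the TOP factors lay near the background. Eef1g, a subunit of elongation factor 1, stood at a mean of 271.5 CPM in Hep and 767.2 in MEF (-1.50 ± 0.15, adjusted p = 5.3e-08).

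High-set iHep_Foxa1 exceeded 48 h cells in 11 of the 19 TOP factors, 18 of the 27 biogenesis genes, 63 of the 78 mitochondrial ribosomal proteins and 45 of the 55 respiratory subunits, with 0, 1, 1 and 0 lower, beside 25.3% higher and 26.6% lower over all tested genes. Eef1b2, a guanine nucleotide exchange factor of elongation, rose from a mean of 578.5 to 1298 CPM (1.17 ± 0.19, adjusted p = 5.5e-05). In 48h_Foxa1 against MEF, 13 of the 27 biogenesis genes were lower and none higher (-0.53), and of the TOP factors 2 were higher and 4 lower (-0.27), beside 9.98% higher and 11.3% lower over all tested genes. In the mutant against 48h_Foxa3, 6 of the 19 TOP factors were higher and none lower (0.48), and 7 biogenesis genes were higher and 1 lower (0.27), beside 4.78% higher and 4.72% lower over all tested genes.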

How the data were processed

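Per the file headers, the authors deposited for each transcript its length, expected count, fraction of the reads and FPKM. Reads came from a stranded mRNA kit. Per the submitters' processing notes BWA 0.7.12 and build mm9 were used, and the quantifier is not given in the sources used here. The members and lists were chosen with earlier results of these data known.

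Expected counts were summed per gene and rounded. Transcripts matched RefSeq (30190) or GENCODE (181) names, and the 339 without a name held 0.609% to 3.208% of reads. A gene's length is that of its most abundant transcript. In R 4.3.3, edgeR 4.0.16 (TMM, filterByExpr, robust quasi-likelihood F test, 2-sided) was fitted on all 28 libraries with 1 coefficient per group and library set and 17 residual degrees of freedom. Benjamini-Hochberg adjustment ran over 16499 genes, and genes were called under 0.05. The fit was tested on simulated data. CPM values are scaled by TMM and compared between libraries, and FPKM values between genes. Floors cover counting error only.

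Named for each comparison were up to 4 called members with the largest rise and 4 with the largest fall, the 6 shortest, longest, highest and lowest members, the stalk genes, Rpsa and paralogue pairs. Other members, such as Rps3, Rpl5, Rps27l, Rpl41 or Rps29, are also named in comparisons outside these, chosen after their values were seen. Alternatives were DESeq2 1.42.0 size factors and Wald test, limma 3.58.1 on log2(FPKM + 1), no filter, no set term, a common set term, a replicate block, and each library left out. Some items are not reported here.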

Additional observations from a re-analysis of the deposited data

Results flagged for a closer look

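Of 128 groups of 4 to 10 values looked at, 30 held a library whose gap to the nearest other was above Dixon's 95% critical value, where chance flags about 1 in 20. The groups are not independent. Many members of 1 library were looked at, and iHep_Foxa3 was taken both whole and as its high set. The 30 can therefore not be set against that rate. The library was iHep_Foxa3 replicate 6 in 22 of the 30. It held 10.7% of its reads in the members, and its CPM stood above the other high-set replicates for Rps27 (906.3), Rpl36 (582.2), Rplp1 (2520.5), Rplp2 (830.0), Rpl39 (1583.9), Rps27l (490.0), Rps28 (1286.8), Rps15a (1019.9), Rps16 (1393.1), Rpl18 (946.5), Rpl37 (657.6), Rpl12 (1921.7), Rps21 (1306.3), Rpl36a (1288.0) and Rpl23 (3020.3).

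iHep_Foxa3 replicate 1, the low-set library of its group, lay apart in 5 values. These were the SD between members (1.12) and the CPM of Rplp0 (669.4), Rps2 (3685.8), Rpl5 (3233.7) and Rpl10 (257.2). The other values were 24.5 CPM of Rpl39l in iHep_Foxa3 replicate 3, 15.4 CPM of Rps4l in iHep_Foxa2 replicate 1 and 137.2 CPM of Rps28 in iHep_Foxa2 replicate 3.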

How the results depend on the processing

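Counts are members called, of 79. DESeq2 size factors gave 24 in Hep against MEF, 5 in iHep_Foxa2 against MEF, 20 in low-set iHep_Foxa1 against Hep and 6 in high-set iHep_Foxa1 against iHep_Foxa3. DESeq2's Wald test gave 6, 21 and 19 in the last 3 of these. limma on log2(FPKM + 1) gave 73, 8, 73 and 9 in these 4, and 74 in iHep_Foxa2 against Hep. A model with no set term pools both sets of iHep_Foxa1 and of iHep_Foxa3, so its groups are not those of the comparisons within a set. It gave 21 and 62 for all 6 iHep_Foxa1 libraries against MEF and Hep, 38 against iHep_Foxa2 and 0 against all 6 iHep_Foxa3 libraries (0 unadjusted), and 20 for each of these groups against 48 h. Over the same libraries as before it gave 9 in Hep against MEF, 14 in iHep_Foxa2 against Hep, 4 in each comparison of 48 h with MEF and 0 for the mutant. The median log2 difference of Hep against MEF stayed at -0.54 in it, while its estimate of the spread takes in the pooled sets. A common set term is estimated from iHep_Foxa1 and iHep_Foxa3 alone and assumed for the other groups. It gave 3 in low-set iHep_Foxa1 against MEF, 0 between the high-set iHep groups (2 unadjusted), 12, 14 and 11 at 48 h against MEF and 60 for the mutant. Pooling aside, the cause was not tested. The summed FPKM gave 0.302 for the share of Hep over MEF and 1.63 for that of high-set iHep_Foxa1 over 48h_Foxa1, where reads gave 0.395 and 2.21. The length relation of -0.417 became -0.396 by longest transcript and -0.432 without Rps15a, an alternative chosen after seeing the data.

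The replicate block gave 44 in iHep_Foxa3 against 48 h and 0 between the high-set iHep groups. It changed no other count of members by over 1.5 times. The numbers were not taken to pair libraries, since 6 of 72 pairs with the same number had correlations over 0.1 (-0.142 to 0.244).

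Leaving out 1 library gave 63 to 70 in the sets of iHep_Foxa1, 14 to 30 in Hep against MEF, 1 to 4 and 21 to 39 in low-set iHep_Foxa1 against MEF and Hep, 2 to 6 and 32 to 42 in iHep_Foxa2 against them, 0 between the low-set iHep groups, 72 to 77 and 48 to 75 in iHep against 48 h with Foxa1 and Foxa3, 0 to 59 between the high-set iHep groups, 22 to 26, 21 to 25 and 22 to 25 at 48 h against MEF, and 0 to 1 for the mutant. An arm left with 1 library is assumed to vary like the others.

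Of 1214 gene values under alternatives (104 pairs of gene and comparison), 983 kept direction and call, 196 lost the call, 8 gained it and 27 reversed. With no set term, over the pooled libraries, these were Rps4l (0.39), Rps20 (0.34) and Rpl34 (1.04) in iHep_Foxa1 against MEF, Rpl36 (1.77), Rpl37 (1.60) and Rps29 (3.06) against Hep, and Rps29 (-0.12) and Rplp1 (-0.08) against iHep_Foxa3. With limma they were Rpl37 (0.18) and Rps29 (0.18) in low-set iHep_Foxa1 and Rps29 (0.07) in iHep_Foxa2 against Hep. With a common set term at 48 h against MEF they were Rpl29 (-0.58, -0.62, -0.52), Rpl36 (-0.84, -0.73, -0.66), Rps27 (-1.33, -1.18, -1.27) and Rps29 (-1.19, -1.25, -1.18) with Foxa1, Foxa2 and Foxa3, and Rplp0 (-0.89), Rplp1 (-1.52), Rplp2 (-1.12) and Rpsa (-1.19) with Foxa1. Depth limits only the paralogues Rpl39l and Rps4l, which had few counts.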
